A study of Mus musculus with 29 samples.

Results

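Endothelial cells line every blood vessel, and 40 genes that mark them or serve them were followed across TH-MYCN mouse neuroblastomas and bone marrow. The rule that takes a gene into the list uses its name and no measured value, though the list was drawn up with earlier results of these arrays known. A probe set was taken when the platform annotation gave it exactly 1 of these genes, under the current symbol or an older one, and a gene's value is that of its probe set with the highest mean. All 40 were measured, among 18193 genes in all, by 72 probe sets (1 each for 22 genes, and up to 5 for the other 18). Levels are log2 values, so a difference of 1 is a 2-fold difference in signal.

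Every sample came from mice of strain 129X1/SvJ with the TH-MYCN transgene, in which the tyrosine hydroxylase promoter drives the oncogene MYCN in sympathoadrenal cells and neuroblastoma forms without further treatment. There were 24 primary abdominal tumours, 7 from mice with wild type caspase-8 and 17 from caspase-8 deficient mice, and 5 samples of total bone marrow, 2 with wild type caspase-8 and 3 deficient. The series asks what loss of caspase-8, the initiator caspase of the death receptor pathway, does to these tumours and to their spread to marrow. The labels do not say which cells lost caspase-8, by which Cre or promoter, how old the mice were, or whether each sample is a separate animal. The p-values therefore measure the spread between these samples. Sample titles are numbered in 2 series, below 100 (3 wild type and 7 deficient tumours) and from 100 up (4 and 10), and tumour comparisons are also given within each. All 5 marrow samples have titles from 100 up, so tissue is partly mixed with title series. Tumours and marrow were not compared within the higher series alone.

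Vessels grow when endothelial cells answer vascular endothelial growth factors through the receptor tyrosine kinases Kdr, Flt1 and Flt4, and they settle through the angiopoietin receptor Tek with its partner Tie1, which the phosphatase Ptprb restrains. Junction proteins such as Cdh5 (VE-cadherin), Esam, Pecam1 and Cldn5 hold the lining together, and transcription factors of the ETS and SOXF families (Erg, Ets1, Sox7, Sox17, Sox18) keep the cells endothelial. Several of these genes are also used by blood cells: Tal1, Erg, Cd34 and Ets1 by haematopoietic progenitors or lymphocytes, Selp and Mmrn1 by megakaryocytes and platelets. In bulk tissue, fewer endothelial cells and less RNA per endothelial cell cannot be told apart.

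The promoters of 5 members are printed because they lie beside the contrasts below: Cd34, Eng and Emcn, which moved with the other members from tumour to tumour, and Selp and Mmrn1, which did not. Mmrn1 is near the low end of the arrays in tumours, so its lack of co-variation says little. No link between these sequences and co-variation was tested. Of the 40 members, 21 matched the RefSeq promoter table of build GRCm38.p6. Each window holds the 250 bases before an annotated start, all on the plus strand, and capitals mark the 6-base ETS motif AGGAAG or its reverse complement CTTCCT. They are Emcn at chr3:137340828-137341077, Eng at chr2:32646345-32646594, Cd34 at chr1:194938571-194938820, Selp at chr1:164115014-164115263 and Mmrn1 at chr6:60944067-60944316.
Emcn: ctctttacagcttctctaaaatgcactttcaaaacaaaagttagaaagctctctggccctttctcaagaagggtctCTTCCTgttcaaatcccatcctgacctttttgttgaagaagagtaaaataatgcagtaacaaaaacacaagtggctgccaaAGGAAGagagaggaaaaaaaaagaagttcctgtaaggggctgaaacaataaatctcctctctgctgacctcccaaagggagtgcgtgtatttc
Eng: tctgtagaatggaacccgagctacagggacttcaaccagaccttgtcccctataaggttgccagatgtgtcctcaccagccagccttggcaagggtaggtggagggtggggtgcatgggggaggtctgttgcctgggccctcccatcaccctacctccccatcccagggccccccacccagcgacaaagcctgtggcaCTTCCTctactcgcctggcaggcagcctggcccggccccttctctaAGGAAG
Cd34: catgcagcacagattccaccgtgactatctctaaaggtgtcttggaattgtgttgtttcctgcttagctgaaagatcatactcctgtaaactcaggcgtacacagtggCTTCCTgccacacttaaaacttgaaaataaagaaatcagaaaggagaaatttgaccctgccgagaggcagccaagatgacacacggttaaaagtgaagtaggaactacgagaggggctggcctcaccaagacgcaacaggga
Selp: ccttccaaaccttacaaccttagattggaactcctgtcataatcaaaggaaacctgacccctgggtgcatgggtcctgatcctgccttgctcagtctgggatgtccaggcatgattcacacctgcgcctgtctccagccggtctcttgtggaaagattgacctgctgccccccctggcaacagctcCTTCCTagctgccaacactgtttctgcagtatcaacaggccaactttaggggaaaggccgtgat
Mmrn1: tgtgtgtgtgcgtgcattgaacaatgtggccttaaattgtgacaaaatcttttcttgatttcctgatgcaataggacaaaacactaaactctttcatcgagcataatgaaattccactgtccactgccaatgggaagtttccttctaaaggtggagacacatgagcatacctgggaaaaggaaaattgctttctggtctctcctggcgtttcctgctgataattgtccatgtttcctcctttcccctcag
Emcn and Eng each held 2 matches to this 6-base ETS motif, Cd34 and Selp 1 each, and the Mmrn1 window 0. Shorter ETS cores were not counted, so 0 is a count of this motif alone. Searched on both strands over all 26 windows of the 21 matched members, the 6-base ETS motif was in 13 (50.0%), against 29.5% of 32851 windows of 27025 genes. The SOX core ACAAT was in 9 member windows (34.6%, against 27.7%), the GATA core AGATAA in 2 (7.69%, against 9.99%), the E-box CAGCTG in 3 (11.5%, against 13%) and the RUNX core TGTGGT in 1 (3.85%, against 14%). No motif searched contains another. A match describes the sequence and does not show a bound site.

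Both tissues carried their own defining markers, in a contrast where 34.2% of all genes were higher in tumours and 42.2% lower. All 11 sympathoadrenal markers measured were higher in tumours, where their mean ran from 9.86 to 10.8, against 4.14 to 4.27 in marrow, so neuroblast markers were low in marrow of both genotypes. Blood lineage markers ran the other way: 9 of 10 leukocyte, 6 of 6 megakaryocyte and platelet, and 4 of 5 erythroid markers were lower in tumours. Casp8 itself overlapped between genotypes in tumours (wild type 5.88 ± 0.57, SD, n = 7; deficient 5.62 ± 0.44, SD, n = 17), and the sources used here do not say whether its probes lie in the deleted part. In marrow Casp8 was 9.30 and 9.62 in wild type and 9.01 to 9.24 in deficient samples. Wild type tumour 5 stands apart for these genes: it had the lowest value of all 24 tumours in 24 of the 40 members, so differences that it moves by over 1.5 times are also given without it, a choice made after the values were seen.

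The level of the endothelial genes varied more between tumours than that of most genes. The standard deviation over the 24 tumours had a median of 0.473 for the members and 0.194 for all genes, and 26 of the 40 members lay above the 90th percentile of all genes. It was widest for Aplnr, the apelin receptor of growing vessels, at 1.37, and narrowest for Sele (E-selectin), at 0.114, whose values stayed between 2.72 and 3.18, near the low end of the arrays. Averaged over the 40 genes, the wild type tumours ran from 5.04 to 5.94 with a median of 5.72, and the deficient tumours from 5.28 to 6.55 with a median of 6.14. The ranges overlap: 11 of the 17 deficient tumours lay above every wild type tumour, while deficient tumours 9, 5 and 17 lay below all wild type tumours but tumour 5. The highest mean was that of deficient tumour 10, which held the highest value in 15 members.

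**Figure D1:**
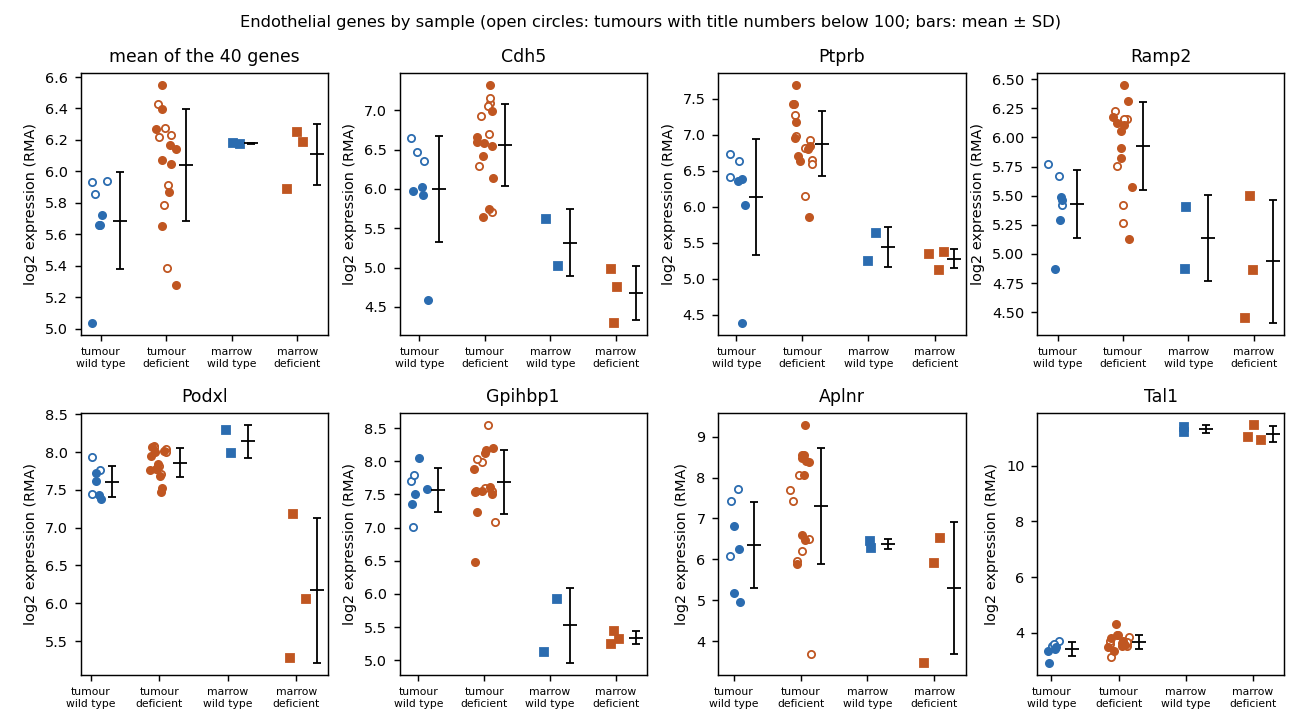
Log2 level of the mean of the 40 genes and of Cdh5, Ptprb, Ramp2, Podxl, Gpihbp1, Aplnr and Tal1 in each sample, by tissue and genotype, with bars for mean ± SD; open circles are tumours with title numbers below 100 and squares are marrow. Tumour genotypes overlap in every panel, 1 wild type tumour lies low for Cdh5 (4.59) and Ptprb (4.39), every tumour exceeds marrow for Gpihbp1, and every marrow sample exceeds the tumours for Tal1.

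No endothelial gene passed the test between caspase-8 genotypes in tumours, although most differences had the same sign. Of the 40 members, 0 had an adjusted p under 0.05 by limma, as did 0% of all genes; each member's adjusted p was 0.9997. Before adjustment, 17 members had p under 0.05, all with higher values in deficient tumours, where 3.2% of all genes had such a p and 1.95% had it in that direction. The difference was positive in 37 of 40 members, against 51.9% of genes, with a median of 0.37 against 0.004. Members share cells and tumours, so 37 same-signed genes are not 37 separate pieces of evidence. Averaged over the 40 genes, the 7 wild type tumours stood at 5.69 ± 0.31 (SD) and the 17 deficient ones at 6.04 ± 0.35 (SD), 0.35 apart. Left out in turn, single tumours moved this difference between 0.25, without wild type tumour 5, and 0.40, and the count of unadjusted p under 0.05 between 7, again without wild type tumour 5, and 24. Without that tumour 36 members were positive, with a median of 0.22, and 17 of the 40 differences moved by over 1.5 times or turned.

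Junction and adhesion genes made up 18 of the members, and 16 had a positive difference, from -0.06 to 0.68. Emcn, the mucin-like endomucin of veins and capillaries, was at 4.95, 6.31 and 6.62 (lowest, median, highest) in wild type and at 5.53, 6.92 and 7.82 in deficient tumours. In 10 of the 17 deficient tumours it lay above every wild type tumour, and the difference was 0.68 ± 0.24 (SE). Mmrn2, an extracellular matrix protein of the vessel wall that binds Cd93 and Clec14a, was at 4.94, 6.68 and 6.87 in wild type and at 5.93, 7.12 and 8.07 in deficient tumours. The genotypes differed by 0.64 ± 0.25 (SE), or by 0.39 without wild type tumour 5, and 12 deficient tumours exceeded every wild type one. Cdh5, the junction cadherin specific to endothelium, was at 4.59, 6.02 and 6.65 against 5.64, 6.60 and 7.32, and differed by 0.57 with a 95% interval of 0.07 to 1.06 before any adjustment.

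Robo4, an endothelial guidance receptor that steadies vessels, was at 4.38, 5.23 and 5.80 in wild type and 4.84, 5.78 and 6.34 in deficient tumours. Podxl, a sialomucin that opens the vessel lumen and is also made by haematopoietic progenitors, varied little: 7.38, 7.62 and 7.93 against 7.48, 7.84 and 8.08, a difference of 0.25 ± 0.09 (SE). Its groups overlap, with 8 of 17 deficient tumours above every wild type value. Pecam1 overlapped fully (4.15, 5.19 and 6.76 against 4.22, 5.49 and 6.43), since its highest tumour of all was wild type tumour 1; its difference was 0.32, and 0.14 without wild type tumour 5. Esam differed by 0.35 (0.19 without it) and Plvap by 0.37 (0.19). Both selectins, the inducible adhesion molecules that slow leukocytes on inflamed vessels, had differences near 0: -0.06 for Selp and -0.03 for Sele (-0.021 and -0.068 without wild type tumour 5). Cldn5, the tight junction claudin of the blood-brain barrier, had one of 0.06, which turned to -0.073 without that tumour.

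Among the 6 growth factor receptors and their phosphatase all differences were positive, from 0.27 to 0.74, and 5 had an unadjusted p under 0.05. Ptprb was at 4.39, 6.38 and 6.73 in wild type and at 5.86, 6.85 and 7.69 in deficient tumours. That gave the widest difference of the 6, 0.74 ± 0.24 (SE), with 11 deficient tumours above every wild type tumour, and 0.45 without wild type tumour 5. The angiopoietin receptors followed: Tie1 was at 3.74, 4.18 and 4.38 against 3.76, 4.66 and 5.08, and Tek at 3.44, 3.88 and 4.70 against 3.33, 4.44 and 5.87. In Tie1 12 deficient tumours lay above every wild type one, but in Tek, where the lowest tumour of all was deficient, only 6 did.

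Kdr, the main signalling receptor for Vegfa, was at 5.45, 6.80 and 7.22 in wild type and at 6.33, 7.15 and 7.70 in deficient tumours, which differ by 0.40 ± 0.19 (SE). Flt1, which traps Vegfa more than it signals, was at 5.51, 6.25 and 7.17 against 5.90, 6.58 and 7.18, so that just 1 deficient tumour passed the highest wild type value. Flt4, the receptor for Vegfc that is best known in lymphatic endothelium, was at 4.73, 4.88 and 5.18 against 4.77, 5.19 and 5.67, a difference of 0.28 ± 0.10 (SE). Much of the distance in Kdr and Flt1 came with 1 sample: without wild type tumour 5 their differences were 0.19 and 0.13, and that of Cdh5 was 0.33.

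Ramp2, the co-receptor that turns Calcrl into the adrenomedullin receptor, had the smallest p of the members, 0.003034 before adjustment by limma. It was at 4.87, 5.47 and 5.77 in wild type and at 5.13, 6.10 and 6.45 in deficient tumours; 12 deficient tumours lay above every wild type one, and the difference was 0.50 ± 0.15 (SE). Calcrl had a difference of 0.38. Aplnr had the widest of all 40, 0.96 ± 0.56 (SE), with an error to match: it was at 4.96, 6.25 and 7.71 against 3.70, 7.69 and 9.28, and both the lowest and the highest tumour were deficient.

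All 6 transcription factors had positive differences, from 0.20 for Erg to 0.52 for Sox18. Without wild type tumour 5 Erg stood at 0.12, Sox17 at 0.20 in place of 0.39, and Tal1 at 0.16 in place of 0.25. Sox7 was at 3.85, 4.51 and 4.68 in wild type and at 3.87, 4.88 and 5.43 in deficient tumours, with 12 deficient tumours above every wild type one. Ets1, also a lymphocyte factor, was at 6.68, 7.02 and 7.78 against 6.72, 7.79 and 8.41, with 9 above. The 7 secreted proteins, enzymes and surface anchors gave the least: 6 were positive and 0 had an unadjusted p under 0.05. Esm1, a proteoglycan shed by sprouting tip cells, differed by 0.46, Apold1 by 0.37, Thbd (thrombomodulin) by 0.38, Egfl7 by 0.17, Gpihbp1, which carries lipoprotein lipase to the capillary lumen, by 0.11, and Nos3, the endothelial nitric oxide synthase, by 0.07. Procr, the protein C receptor, went the other way at -0.17, the lowest of the 40. Wild type tumour 5 carried much of the first of these: without it Esm1 differed by 0.15, Apold1 by 0.22 and Nos3 by 0.035.

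**Figure D2:**
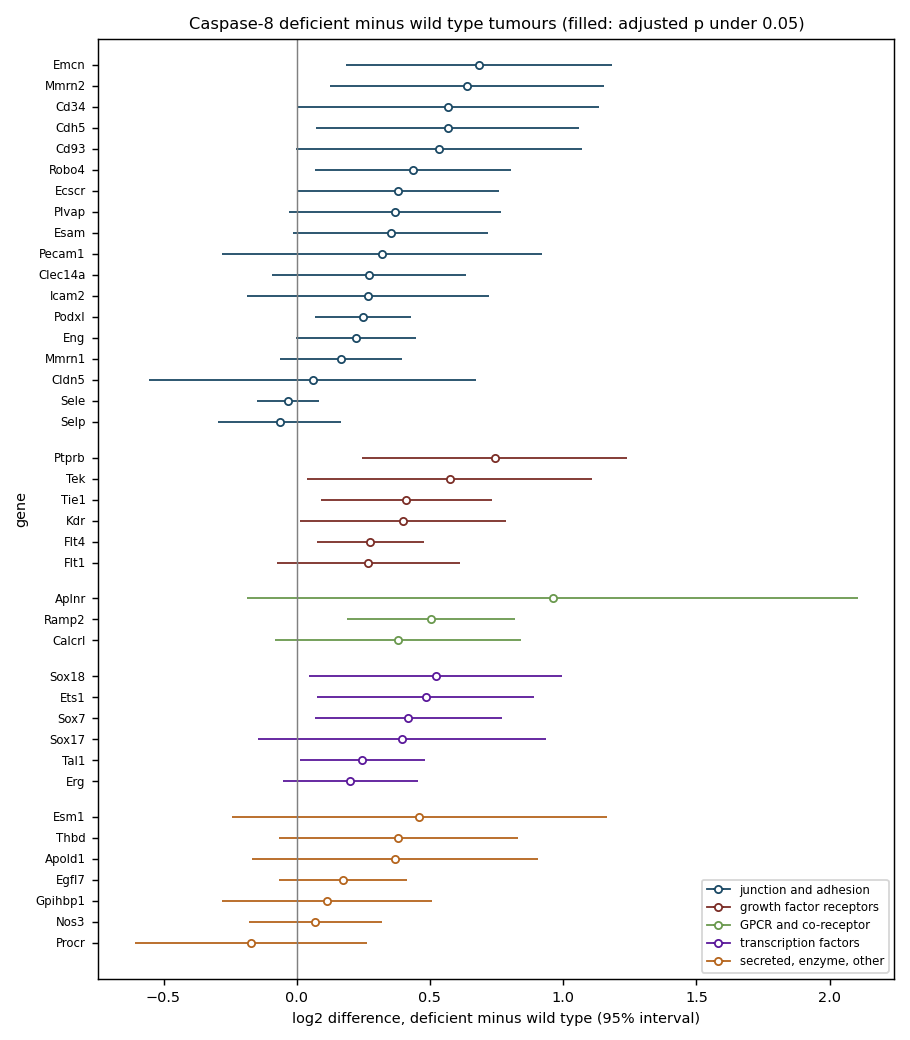
Difference in log2 level, deficient minus wild type tumours, for each of the 40 genes grouped by role, with 95% intervals from limma; filled points would mark adjusted p under 0.05. None is filled, 37 of 40 points lie to the right of 0, and the widest interval belongs to Aplnr (0.96).

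The difference was unequal between title series. In the series from 100 up, 37 of 40 members were positive, with a median of 0.49; below 100, 32 were, with a median of 0.11, and 34 had the larger value in the higher series. For the mean of the members the differences were 0.13 below 100 and 0.52 from 100 up. Ptprb differed by 0.18 and 1.16, Ramp2 by 0.25 and 0.69, Cdh5 by 0.21 and 0.84, and Aplnr by -0.57 and 2.07, while Flt4 (0.32 and 0.25) and Podxl (0.22 and 0.28) were much alike in both. Tested directly as an interaction by limma, 0 members passed, as did 0% of all genes, with 4 members and 5.13% of genes at an unadjusted p under 0.05. Those 4 were Aplnr, with a difference between series of 2.64 ± 1.01 (SE), Ptprb with 0.98, Thbd with 0.94 and Ets1 with 0.85, each at an adjusted p of 0.9208. Wild type tumour 5 is 1 of the 4 from 100 up. Without it the higher-series differences were 0.69 for Ptprb, 0.49 for Cdh5, 0.55 for Ramp2, 1.86 for Aplnr and 0.36 for the mean of the members, and the differences between series were 0.51 for Ptprb, 2.43 for Aplnr, 0.77 for Thbd and 0.79 for Ets1. Control probes on each array give a sign of RNA integrity, their 3' signal minus their 5' signal, and it was unequal in the same way: its genotype difference was -0.025 below 100 and 0.27 from 100 up, and its part in the pattern was not tested within series.

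Most genes of the vessel's surroundings also had positive differences, and none passed the test. Among 12 pericyte and smooth muscle markers 9 were positive, with a median of 0.44. They include Notch3 (0.45), which smooth muscle needs to mature, Mcam (0.42), Rgs5 (0.55) and Tagln (0.58); without wild type tumour 5 Rgs5 stood at 0.23 and Tagln at 0.38. The mean of this list stood at 6.94 ± 0.54 (SD) over the 7 wild type and at 7.24 ± 0.34 (SD) over the 17 deficient tumours, and its difference was -0.18 below 100 and 0.67 from 100 up. The pooled difference of 0.31 was 0.13 without wild type tumour 5, and that from 100 up was 0.42. Of 25 vessel growth ligands and partners 21 were positive, with a median of 0.15: the Notch ligand Dll4 differed by 0.22, the arterial ephrin Efnb2 by 0.39, Heyl by 0.30 and the sphingosine phosphate receptor S1pr1 by 0.15. Of 20 further endothelial genes 14 were positive, with a median of 0.18, among them Rasip1 (0.36), Tmem204 (0.61), She (0.44) and Myct1 (0.29); without wild type tumour 5 Tmem204 stood at 0.32, She at 0.24 and Myct1 at 0.18. Leukocyte markers were positive in 2 of 10, with a median of -0.12, and all 4 lymphatic markers were positive (Pdpn 0.54). The 3' minus 5' control signal stood at 0.62 ± 0.15 (SD) over the 7 wild type and at 0.76 ± 0.18 (SD) over the 17 deficient tumours. With it as a term, 8 members in place of 17 had an unadjusted p under 0.05; its part in the differences was not otherwise tested.

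From tumour to tumour the endothelial genes moved together. Over the 780 pairs of members, Pearson's r across the 24 tumours had a median of 0.568 and exceeded 0.5 in 59.1%, against a median of 0.010 and 2.64% for pairs of all genes. Only 37 pairs (4.74%) were negative, and r ran from -0.507 to 0.960. These are correlations over tumours that share dissection, array and cell content, and they are given as a description. Within series and genotypes the median r was 0.615 below 100, 0.621 from 100 up, 0.581 in deficient and 0.481 in wild type tumours.

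Junction and adhesion genes lay both at the centre of this pattern and outside it. Esam followed the mean of the other 39 members with r of 0.976, Mmrn2 with 0.961, Cdh5 with 0.937 and Cd34 with 0.927. Of other roles, Ets1 reached 0.905 and Ptprb 0.895. The closest single pair was Esam with Mmrn2 (0.960). Some known partners and family members had r from above the median of member pairs to near it. Sox18 stood at 0.811 with Sox7 and at 0.797 with Sox17, and Ramp2 at 0.740 with its receptor Calcrl. Erg with Ets1 stood at 0.642, Tek with Tie1 at 0.625 and Sox7 with Sox17 at 0.590. Other such pairs lay lower: Kdr with Flt1, and in the next paragraph Thbd with Procr, Mmrn1 with Mmrn2 and Selp with Sele. Further close pairs were Cd93 with Ets1 (0.911), Eng with Plvap (0.909), Cd34 with Ecscr (0.906) and Ramp2 with Sox18 (0.900). Kdr with Flt1, both receptors for Vegfa, reached only 0.515, and 0.243 without wild type tumour 5.

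Standing outside were 6 members with r under 0.5 against the mean of the others: Cldn5 (0.471), Esm1 (0.449), Apold1 (0.390), Sele (0.165), Selp (0.097) and Mmrn1. Selp and Sele did not move with each other either (-0.076), nor did Mmrn1 with its family member Mmrn2 (0.027). Sele and Mmrn1 are near the low end of the arrays in tumours, where 8.37% and 10.3% of all genes have a lower mean, so their r says little about them. The lowest r of all was that of Esm1 with Selp, -0.507. Smaller groups showed within the set: Thbd followed Aplnr at 0.838 but Procr, its partner in activating protein C, at 0.196, and Procr followed Gpihbp1 at 0.824. Esm1 and Apold1 both followed Robo4, at 0.790 and 0.750.

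**Figure D3:**
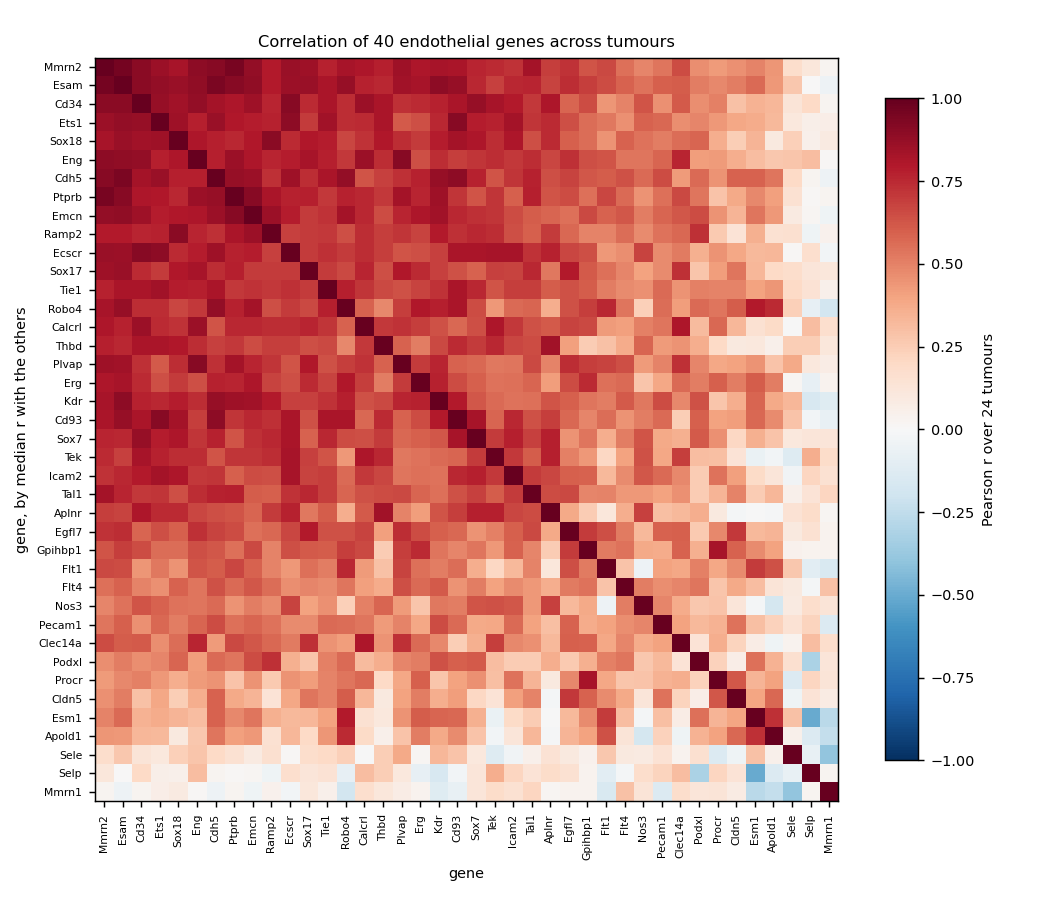
Pearson's r across 24 tumours for every pair of the 40 genes, ordered by each gene's median r with the others. Most of the map is positive (median 0.568), with Mmrn2 and Esam first and pale or negative bands for Mmrn1, Selp and Sele last.

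Cdh5 was used as the reference gene for tests of co-variation, since it is a defining gene of endothelium. Its level passed a permutation test with 36 of the 39 other members by Pearson and by Spearman alike, with Benjamini-Hochberg adjustment over 39 relations. The test was not run on all genes, so the 36 have no matching share. As a separate measure, r with Cdh5 exceeded 0.5 in 3.35% of all other genes, and members passed below 0.5 too. The closest were Esam (r = 0.940, rho = 0.880), Mmrn2 (r = 0.911, rho = 0.864), Cd93 (r = 0.898, rho = 0.916), Robo4 (r = 0.876, rho = 0.821), Kdr (r = 0.874, rho = 0.787) and Ptprb (r = 0.870, rho = 0.807). Each r had a permutation p of 1e-05, the smallest that 100000 resamples can give, and an adjusted permutation p of 3e-05. Without the 2 tumours farthest from the median of Cdh5 (wild type 5 and deficient 9), r for these 6 was 0.889, 0.827, 0.878, 0.790, 0.760 and 0.734. At the other end, Mmrn1 (r = -0.048, adjusted permutation p = 0.841, and rho = 0.034), Selp (r = 0.030, adjusted permutation p = 0.891, and rho = 0.132) and Sele (r = 0.198, adjusted permutation p = 0.372, and rho = 0.114) did not pass. Clec14a (r = 0.423), Procr (r = 0.447) and Apold1 (r = 0.533) passed, but without the 2 farthest tumours r was 0.263 in Clec14a, 0.322 in Apold1 and 0.605 in Procr.

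Among 11 genes outside the set, the pericyte genes had the highest r with Cdh5. Of these 11 genes, chosen for other cell types and for vessel growth, 6 passed against Cdh5 by the same permutation test, adjusted over 11 relations. Pdgfrb, the receptor by which pericytes are recruited, had r of 0.836 (adjusted permutation p = 0.00011), or 0.729 without the 2 farthest tumours. Its rho was 0.742 (adjusted permutation p = 0.00077). Rgs5 had r of 0.779 (adjusted permutation p = 0.000385), or 0.673 without those tumours, and rho of 0.617 (adjusted permutation p = 0.00522). The adipocyte hormone Adipoq (r = 0.642), the collagen Col1a1 (r = 0.581), the tip cell ligand Dll4 (r = 0.515) and the Tek antagonist Angpt2 (r = 0.505) also passed. Angpt2 rested on the farthest tumours, with r of 0.187 without them, and did not pass by Spearman (rho = 0.309, adjusted permutation p = 0.174). Vegfa, the main ligand, had r of -0.129 over all tumours, 0.178 below 100 and -0.615 from 100 up. Th, the catecholamine enzyme of the tumour cells, had r of -0.402, which passed by Spearman alone (rho = -0.467, adjusted permutation p = 0.0425). The macrophage gene Csf1r (r = 0.192), the platelet integrin Itga2b (r = -0.204) and the hypoxia-induced Slc2a1 (r = -0.389) did not pass. Within the 10 tumours below 100 none of the 11 passed; there Pdgfrb had r of 0.471, against 0.936 in the 14 tumours from 100 up.

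**Figure D4:**
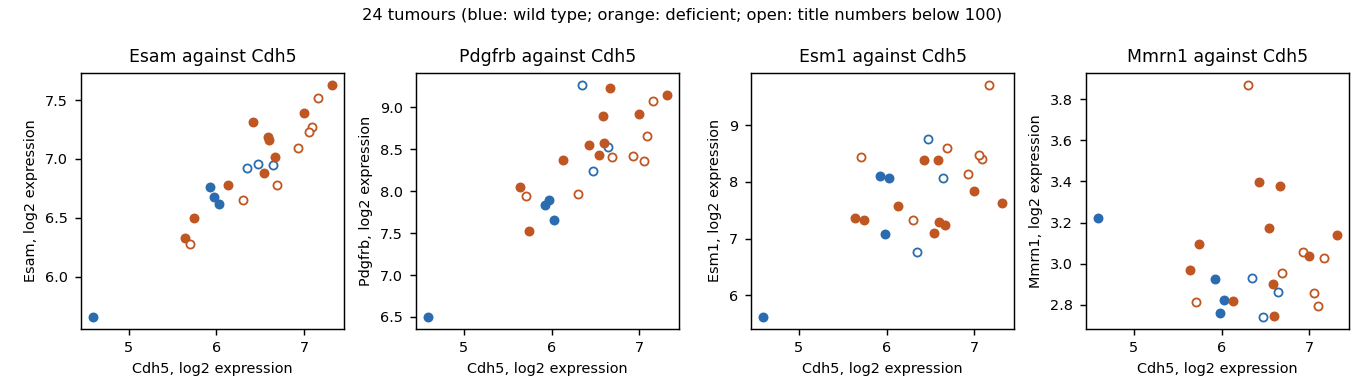
Log2 level of Esam, Pdgfrb, Esm1 and Mmrn1 against that of Cdh5 in each of 24 tumours (blue wild type, orange deficient, open circles title numbers below 100). Esam rises in a narrow band (r = 0.940), Pdgfrb in a wider one (r = 0.836), Esm1 more loosely, and Mmrn1 stays low at every level of Cdh5 (r = -0.048).

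Genes outside the list that tracked its mean most closely included other genes of endothelial cells. The 12 with the highest r against the mean of the 40 members over the 24 tumours were Arhgap29 (0.937), Arhgap31 (0.935), She (0.930), Rasgrp3 (0.926), Wwtr1 (0.915), Adgrf5 (0.913), Arap3 (0.911), Fgd5 (0.908), Pcdh12 (0.902), Tm4sf1 (0.899), Cavin1 (0.897) and Tmem204 (0.897). Pcdh12 is an endothelial protocadherin and Cavin1 builds caveolae. As list means against the member mean, r was 0.948 for the 20 other endothelial genes, 0.844 for pericyte and smooth muscle markers, 0.730 for vessel growth genes and 0.602 for adipocyte markers. It was 0.471 for fibroblast, 0.293 for leukocyte, 0.224 for lymphatic and -0.155 for sympathoadrenal markers, and 0.256 for the 3' minus 5' control signal.

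Against bone marrow the endothelial list divided, as did all genes. By limma, with each tissue taken as the mean of its 2 genotypes, 16 members were higher and 14 lower in tumours at an adjusted p under 0.05, 30 of 40 together, where 76.4% of all genes passed (34.2% higher and 42.2% lower). With at least a 2-fold difference as well, 8 were higher and 8 lower, against 16.8% and 12.6% of genes. The median difference was 0.38 against -0.10 for all genes, but the mean of the members lay 0.28 lower in tumours, a difference of -0.28, because the falls were larger than the rises. Centring each array on its median moves the all-gene median from -0.10 to -0.39. Of the 40 members 12 are then higher and 14 lower, where 4711 of all 18193 genes are higher and 10602 lower. Among the genes called, a different base, the higher share goes from 44.7% to 30.8%. Egfl7, Podxl, Robo4 and Sox7 are the 4 members higher as deposited but not after centring.

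The genes higher in tumours were led by Gpihbp1, at 6.48, 7.59 and 8.54 (lowest, median, highest) in tumours and at 5.92 and 5.13 in wild type and 5.33, 5.44 and 5.25 in deficient marrow. It was the single member for which every tumour exceeded every marrow sample, as 20.9% of all genes did, and rose 4.57-fold (log2 2.19 ± 0.21, SE, adjusted p = 1.622e-10). Ecscr, an endothelial surface regulator of migration, was higher by 1.35 ± 0.22 (SE, adjusted p = 3.72e-06), with values of 5.56, 6.30 and 7.43 in tumours and 3.73 to 5.90 in marrow. Cdh5 was at 4.59, 6.51 and 7.32 in tumours and at 5.62, 5.02, 4.98, 4.76 and 4.30 in marrow. All tumours but wild type tumour 5 exceeded every marrow sample, and Cdh5 was 2.43-fold higher (adjusted p = 7.978e-05).

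Emcn was higher in tumours by 1.26 ± 0.27 (SE, adjusted p = 0.000131), Ptprb by 1.15 ± 0.26 (SE, adjusted p = 0.0002518) and Mmrn2 by 1.04 ± 0.28 (SE, adjusted p = 0.001284). Flt1 was higher by 1.04 ± 0.18 (SE, adjusted p = 8.5e-06): it ran from 5.51 to 7.18 in tumours and from 5.22 to 5.70 in marrow. Of its fellow receptors, Kdr did not pass (0.43, adjusted p = 0.05353), though 19 tumours exceeded every marrow sample; in deficient samples alone it did (0.56, adjusted p = 0.02224). Sox17, a factor of arterial endothelium, was higher by 1.04 ± 0.29 (SE, adjusted p = 0.001897), Procr by 0.97 (adjusted p = 0.0005618) and Plvap, the diaphragm protein of fenestrated capillaries, by 0.82 (adjusted p = 0.0008647). Smaller rises were those of Ramp2 (0.64), Podxl (0.58), Nos3 (0.58), Robo4 (0.53), Sox7 (0.52) and Egfl7 (0.33). Podxl stood apart in this group: it was higher in deficient samples (1.69, adjusted p = 3.487e-07) and lower in wild type samples (-0.53, adjusted p = 0.01912), as 8.30 in wild type marrow sample 1 exceeded every tumour and all 3 deficient marrow samples lay below every tumour. Without wild type marrow sample 2 the calls of Robo4 (0.46, adjusted p = 0.08149), Sox7 (0.51, adjusted p = 0.05254) and Egfl7 (0.23, adjusted p = 0.2116) were lost, and without deficient marrow sample 3 those of Sox7 (0.43, adjusted p = 0.05595) and Egfl7 (0.22, adjusted p = 0.1569). In wild type samples alone (7 tumours, 2 marrow) the rises of Cdh5 (0.68, adjusted p = 0.2134), Ecscr (0.64, adjusted p = 0.07635), Emcn, Ptprb, Mmrn2, Sox17, Plvap, Ramp2, Robo4, Sox7 and Egfl7 no longer passed, and Gpihbp1, Flt1, Procr and Nos3 did.

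Among the genes lower in tumours, those with the widest differences have known uses in blood cells. Tal1, the haematopoietic stem cell and erythroid factor, had the widest difference of the 40, -7.68 ± 0.13 (SE): it was at 2.93, 3.60 and 4.32 in tumours and at 11.22, 11.40, 11.46, 11.02 and 10.94 in marrow (adjusted p = 4.562e-29). Mmrn1 was lower by a difference of -3.91 (2.74 to 3.87 in tumours, 6.02 to 7.52 in marrow), and no fold is read from it, since its tumour values lie near the low end of the arrays. Selp was 11.8-fold lower (4.45 to 5.35, against 7.93 to 8.86). Both are proteins of platelet alpha granules, and the megakaryocyte and platelet markers lay between 4.54 and 5.68 on average in tumours and between 9.18 and 10.1 in marrow; their part in the difference was not tested. Erg was 5.81-fold lower (adjusted p = 1.191e-14), Calcrl 5.55-fold (adjusted p = 3.046e-10), Ets1 4.44-fold (adjusted p = 3.154e-10), Icam2, a ligand of leukocyte integrins, 3.48-fold (adjusted p = 9.474e-08) and Thbd 3.04-fold (adjusted p = 5.828e-07).

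In these 8 genes every tumour lay below every marrow sample, as in 16.9% of all genes. Leukocyte markers averaged 4.95 to 6.53 in tumours and 8.35 to 8.74 in marrow, and how much of the 8 differences blood cells carry was not tested. In the other 6 genes the tissues overlap. Cd93 was lower by 0.92 (a difference of -0.92, adjusted p = 0.004946), Cd34 differed by -0.83 (adjusted p = 0.01266), Eng by -0.80 (adjusted p = 1.895e-06), Flt4 by -0.58 (adjusted p = 0.0001507), Tie1 by -0.41 (adjusted p = 0.03429) and Sele by -0.23 (adjusted p = 0.01019). The call of Cd34 was lost without wild type marrow sample 2 (-0.75, adjusted p = 0.0677), that of Sele without deficient marrow sample 3 (-0.13, adjusted p = 0.08924), and that of Tie1 without wild type sample 2 (-0.25, adjusted p = 0.2853) and without deficient sample 2 (-0.40, adjusted p = 0.06136) or 3 (-0.40, adjusted p = 0.0589). Within 1 genotype, Flt4 (-0.21, adjusted p = 0.28), Tie1 (-0.15, adjusted p = 0.5739) and Cd34 (-0.71, adjusted p = 0.1144) did not pass in deficient samples, nor Cd93 (-1.01, adjusted p = 0.07019) and Sele (-0.12, adjusted p = 0.4177) in wild type samples. Sele was near the low end of the arrays in both tissues, at 2.72 to 3.18 and 2.96 to 3.62.

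The remaining 10 did not pass over all samples. Esam, the gene closest to the set's mean among tumours, was at 5.66, 6.93 and 7.63 in tumours and at 6.56, 6.72, 6.98, 6.82 and 7.02 in marrow, a difference of 0.03 (adjusted p = 0.8764) that became -0.26 after median centring. Pecam1, shared by endothelium, platelets and leukocytes, differed by 0.43 (adjusted p = 0.2364), Aplnr by 0.99, Cldn5 by 0.49, Sox18 by 0.45, Clec14a by 0.23, Esm1 by 0.18, Apold1 by -0.13 and Tek by -0.18. In deficient samples alone Aplnr (2.002, adjusted p = 0.0351) and Sox18 (1.04, adjusted p = 0.01338) passed, and in wild type samples alone they stood at -0.021 and -0.13. The signs of Clec14a and Esm1 turned under median centring, to -0.064 and -0.11.

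By role, with values as deposited, 7 of the 18 junction and adhesion genes were higher and 7 lower. Of all genes 34.2% were higher and 42.2% lower, and these shares are the background for each role. Among growth factor receptors 2 of 6 were higher (Flt1, Ptprb) and 2 lower (Flt4, Tie1). Of the adrenomedullin and apelin receptor genes Ramp2 was higher and Calcrl lower, so the receptor and its co-receptor parted between tissues, while they went together among tumours. Of the transcription factors the SOX genes Sox7 and Sox17 were higher and Erg, Ets1 and Tal1 lower. Of the 7 secreted proteins, enzymes and anchors 4 were higher and Thbd was lower.

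**Figure D5:**
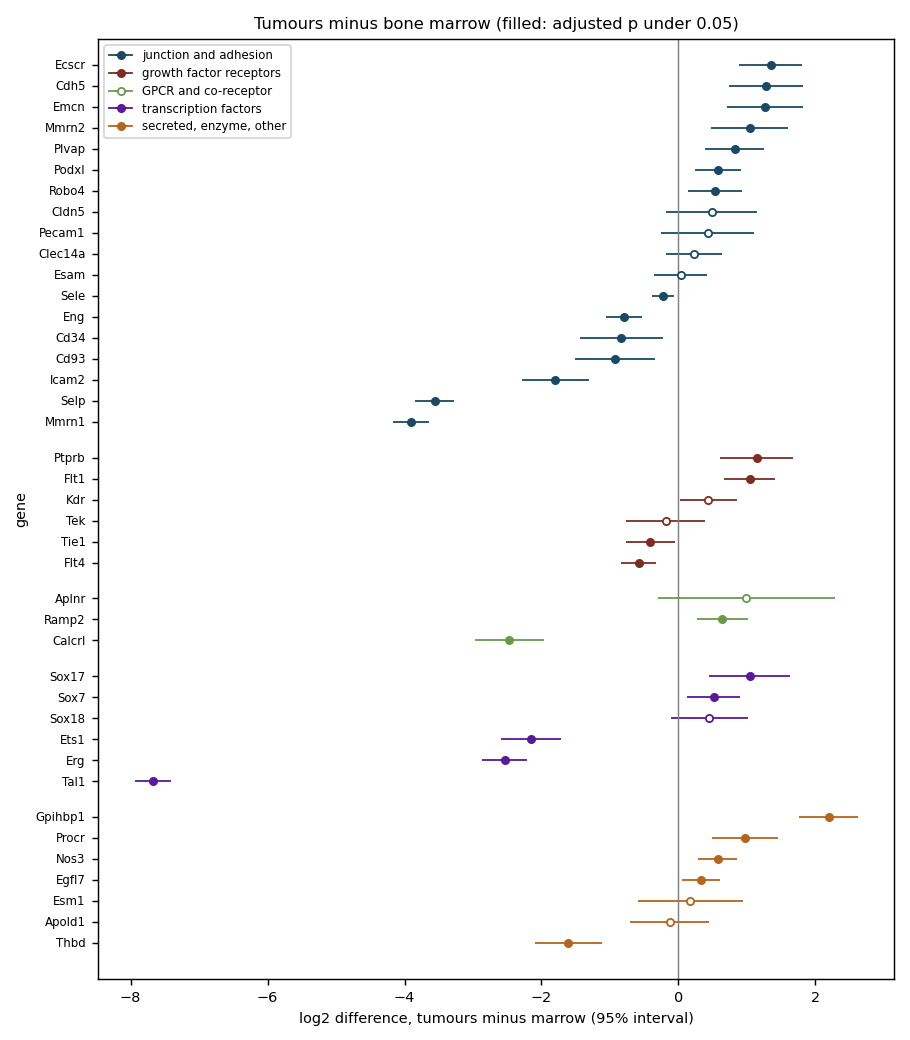
Difference in log2 level, tumours minus marrow, for each of the 40 genes grouped by role, with 95% intervals from limma; filled points have an adjusted p under 0.05. The 30 filled points fall on both sides of 0, from -7.68 for Tal1 to 2.19 for Gpihbp1.

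Companion genes divided in the same contrast, where 34.2% of all genes were higher in tumours and 42.2% lower. Of 25 vessel growth genes 13 were higher in tumours and 5 lower, among them the semaphorin and Vegf co-receptor Nrp2 (4.62), the Notch ligands Jag1 (2.34) and Jag2 (1.33), and Notch1 (-2.04). Of 20 further endothelial genes 5 were higher and 9 lower, with Nova2 at 4.21, Arhgef15 at 2.90, Bmx at -5.06 and Vwf, which megakaryocytes also make, at -3.00. Nrp2 and Nova2 are also expressed in neurons. Of 12 pericyte and smooth muscle genes 7 were higher (Rgs5 3.30, Tagln 3.16, Acta2 2.85, Notch3 1.55) and 0 lower by limma, also at an unadjusted p under 0.05. All 6 platelet markers were lower, from -2.56 for Treml1 to -8.44 for Ppbp, with Gp9 at -3.80 and Itga2b at -3.93.

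Some differences depended on which probe set was read. Of the 32 further probe sets of members, 27 had the sign of the main one for genotype in tumours and 25 for tumours against marrow. In the tissue contrast a second probe set of Cdh5 differed by -0.19, at a mean of only 3.04. For Mmrn2 it was -0.19 at a mean of 6.49, although its values followed the main probe set among tumours with r of 0.819. Aplnr (-0.04), Podxl (-0.06), Ptprb (-0.32), Sox17 (-0.06) and Sox7 (-0.25) also had 1 probe set of opposite sign. Size varied too: a second Erg probe set differed by -0.23 at a mean of 4.30, and 2 of Calcrl by -0.79 and -0.05 at means of 3.03 and 2.50. A second Eng probe set, at a mean of 5.96, did not pass (-0.13, adjusted p = 0.5046 by limma). The further probe sets of Ets1 stood between -1.18 and -2.21, and those of Selp at -2.79 and -1.76. Over probe sets, 51 of 72 passed in this contrast, against 70.3% of all 45037.

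In marrow, caspase-8 genotype left the endothelial list without a called member. With 2 wild type and 3 deficient samples, 0 of 40 passed by limma, where 0.022% of all genes did (4 genes), and 5 had an unadjusted p under 0.05 against 4.05%. The difference was positive in 17 of 40, against 47.6% of genes. Podxl had the widest: 8.30 and 7.99 in wild type against 7.18, 5.28 and 6.05 in deficient marrow, which do not overlap, a difference of -1.97 ± 0.48 (SE). Its adjusted p was 0.9996 when marrow was fitted alone and 0.0003856 when the spread was taken from all 4 groups, in which tumours vary little. Over all alternatives it ran from 0.0003856 to 0.9998. A second Podxl probe set averaged 4.94 in wild type and 4.33 in deficient marrow.

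The remaining marrow genes with the smallest p included the platelet gene Mmrn1 (6.02 and 6.77 in wild type, 7.40, 7.52 and 7.19 in deficient marrow; difference 0.98 ± 0.25, SE). Calcrl was at 7.18 and 7.88 against 8.13, 7.91 and 8.43, and Thbd at 6.38 and 6.72 against 7.24, 7.08 and 6.69. Lower in deficient samples were Ecscr (5.90 and 4.84 against 4.85, 4.43 and 3.73) and Cdh5 (5.62 and 5.02 against 4.98, 4.76 and 4.30). The genotype groups of marrow also differ in sex-linked genes: Xist was 5.11 and 6.20 in wild type and 11.6 to 12.2 in deficient marrow, and Uty 6.12 and 5.69 against 2.94 to 3.04. Genotype and sex in marrow cannot be told apart.

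Tested as a difference between tissues, the genotype effect on 1 member passed, as on 0.319% of all genes (58). Podxl had a genotype difference of 0.25 in tumours and -1.97 in marrow, an interaction of 2.22 ± 0.32 (SE, adjusted p = 0.0005113 by limma; 6.812e-08 to 0.01706 over the alternatives). Ecscr had one of 1.41 (adjusted p = 0.2681), Mmrn1 of -0.81 (adjusted p = 0.2951) and Flt4 of 0.75 (adjusted p = 0.3414). Without wild type marrow sample 2 Ecscr (1.94, adjusted p = 0.0452) and Mmrn1 (-1.18, adjusted p = 0.03318) passed as well. Calls over all 18193 genes also rose there, from 58 to 422.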

How the data were processed

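Total RNA (100 ng) of 29 samples was labelled by a 2-cycle protocol and hybridised to Affymetrix arrays, per the labels' protocols. The authors deposited log2 expression values of 45101 probe sets, and the submitters' processing notes name RMA and Partek 6.6. The sources used here do not say whether the arrays were normalised as 1 set. They run from 1.87 to 14.42, and the number of arrays limits their precision. The 64 control probe sets were set aside; of the rest 34945 had 1 gene symbol, 932 several and 9160 none here, and 34741 symbols were updated or kept through Entrez IDs in RefSeq's table. Each gene took its probe set of highest mean, without a filter on level (32 of 40 members had a mean of at least 5). limma 3.58.1 in R 4.3.3 (lmFit, eBayes) was fitted on all 18193 genes and tested on simulated data, with tumours and marrow fitted apart for genotype, and as 4 groups for tissue and interactions. P-values were adjusted by Benjamini-Hochberg over all genes, and called under 0.05; correlations used 100000 permutations, two-sided. Alternatives changed, 1 at a time, how probe sets were combined, the filter on level, the scaling of arrays, their weights, the variance model, covariates, and which samples entered.

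The members and the lists were chosen with earlier results of these data known. In tumours the members of the 10 smallest p and 6 defining genes were named with their ranges; in marrow 6, and in each interaction 4, of smallest p. Between tissues the 10 largest rises, every fall and every gene that did not pass were named; with Cdh5 the 6 highest and 6 lowest r. Outside the members, the 12 of highest r with their mean and the 4 of smallest p of a list were named. Other names and pairs were chosen after their values were seen. Labels number no replicates, so sample numbers follow deposit order.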

Additional observations from a re-analysis of the deposited data

Results flagged for a closer look

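Wild type tumour 5 lay far from the other 6 wild type tumours in 10 of 41 checks of that group (40 genes and their mean), where chance gives about 1 in 20. Its gap to the nearest tumour exceeded 0.568 of the group's range in each. It was the lowest for Cdh5 (4.59), Esam (5.66), Emcn (4.95), Plvap (6.35), Mmrn2 (4.94), Kdr (5.45), Ptprb (4.39), Sox17 (3.44) and the mean of the members (5.04). It was the highest for Mmrn1 (3.22), the platelet gene. In the same tumour the mean of the pericyte markers was 5.87, the lowest of all tumours, that of leukocyte markers 5.92, of platelet markers 5.42 and of sympathoadrenal markers 10.4. The members share that tumour's tissue, so these are not 10 separate events, and what sets it apart was not tested.

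The genotype difference of Podxl in tumours exceeded that in marrow by 2.22 on the log2 scale, by a direct test of the interaction. That test took its spread from all 4 groups, in which tumours vary little for this gene, and marrow genotype and sex cannot be told apart.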

How the results depend on the processing

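No alternative brought a member past the threshold between genotypes in tumours. The 17 members with an unadjusted p under 0.05 became 8 with the 3' minus 5' signal as a term and 0 in title series under 100, where Ets1 turned to -0.0037, Tal1 to -0.0031, Thbd to -0.16, Aplnr to -0.57, Egfl7 to -0.029, Icam2 to -0.026, Nos3 to -0.039, Procr to 0.028 and Selp to 0.046; leaving out 1 tumour gave 7 to 24, with Sele from -0.068 to 0.0069 and Cldn5 from -0.073 to 0.18. Cldn5 turned to -0.00147 with array weights. In marrow 1 member, Podxl, passed in the model of all 4 groups, where 83 of all 18193 genes did. With a marrow sample left out 0 members passed, against 4 of all genes each time. Between tissues, median centring gave Clec14a -0.064, Esm1 -0.11 and Esam -0.26, and quantile normalization Esm1 -0.071 and Esam -0.26. Wild type samples alone gave 17 passing members, 4 of them higher; Podxl passed with the opposite sign (-0.53), and without a call Sox18 was at -0.13, Aplnr at -0.021 and Esm1 at -0.12; deficient samples alone gave Tek 0.19 and Apold1 0.12. With 1 marrow sample left out, 25 to 30 members passed (13 to 16 higher, 12 to 14 lower), against 12589 to 13600 of all 18193 genes. Esam then ran from -0.0051 to 0.074 and Esm1 from -0.023 to 0.33. The interaction with tissue was passed by 1 to 3 members, and by 32 to 422 of all genes. Anchors passing against Cdh5 fell from 6 to 0 in title series under 100, with 10 tumours. No paired analysis was possible because the labels give no replicate numbers. Tal1, Mmrn1, Selp, Erg, Calcrl, Ets1, Icam2, Thbd, Eng, Gpihbp1, Flt1, Procr and Nos3 kept their call between tissues under every alternative that tested them; the low-value filter kept 32 members. No member passed the interaction with title series under any alternative run. Levels near the low end of the arrays, as for Sele, limit what can be seen there.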

Other observations

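Esm1, which followed the other endothelial genes loosely, was set against the same 11 genes as Cdh5, a choice made after its values were seen, together with Gpihbp1 (22 relations). Esm1 followed Angpt2, made by tip cells as well, with r of 0.803 over 24 tumours (adjusted permutation p = 0.00022). The rho was 0.615 (adjusted permutation p = 0.0337). Without the 2 tumours farthest from the median of Esm1 r was 0.545, and it was 0.826 below 100 and 0.651 from 100 up. With Vegfa Esm1 had r of 0.516, which did not pass (adjusted permutation p = 0.0897), and the series differed, at 0.899 below 100 and -0.096 from 100 up. The difference between the series was not tested.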
